A study of Bos taurus with 6 samples.

Results

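Keratins are the intermediate filament proteins of epithelial cells, and 6 of them were followed in bovine blastocysts: KRT8, KRT18, KRT19, KRT7, KRT6A and KRT10. The set was chosen with earlier results of these data known, and its rows were taken by gene name. All 6 were among the 9537 genes of the authors' deposited table. The table held another 6 keratins (KRT5, KRT80, KRT15, KRT17, KRT14 and KRT78), which are given beside them. Of 57 protein-coding keratin genes named KRT and a number in the RefSeq gene table of assembly ARS-UCD2.0, the other 45 are not in the table and were not analysed here.

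The samples were RNA-seq libraries of Bos taurus blastocysts produced in vitro in a standard embryo medium (SOFaaci). There were 3 libraries from embryos with high and 3 from embryos with low cryosurvival, meaning survival after vitrification, a rapid ice-free freezing. All high libraries also bear the code V in their titles, and all low libraries the code NV, with no key in the labels. The labels give no sex, breed or treatment, no number of embryos per library, and no statement of when RNA was taken relative to freezing or of whether libraries came from separate cultures. The p-values therefore measure the spread between these libraries, which may be technical.

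Keratin filaments are built from pairs, a type I chain (KRT18, KRT19, KRT10) with a type II chain (KRT8, KRT7, KRT6A). The outer layer of the blastocyst, the trophectoderm, is the first epithelium of the embryo. It is known for KRT8 and KRT18, joined by KRT19 and KRT7, in filaments anchored at desmosomes. KRT10 belongs to differentiating epidermis, and KRT6A to keratinocytes under stress or repair.

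Values are CPM, the authors' read counts divided by a scaled library size and brought to a common total, over 14651477 to 19467022 reads in the table per library. As CPM is not divided by message length, levels of different genes are not ranked against each other as transcript numbers. KRT8 took more reads than any other gene in all 6 libraries, and KRT18 ranked 3 by reads in all 6. The 6 keratins together took between 2.69% and 3.31% of the table's reads in low libraries and between 3.06% and 3.35% in high ones. Low library 2 stood apart: it was the highest of the 6 libraries for 34.4% of all genes and the lowest for 35.5%. Its reads in the table came to 1.10 times its scaled library size, against 0.961 to 0.996 in the other libraries. Where the call of a named keratin or list gene changed when it was left out, this is given with the result. Genes named only for likeness to a keratin were not followed in this way.

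The label was checked against cell type markers. Of 16 trophectoderm markers 14 were in the table, among them CDX2, GATA3 and TFAP2C, while TEAD4 and IFNT were not. Their summed level was 3636 to 4086 CPM in low and 4109 to 4519 CPM in high libraries. Markers of the inner cell mass and epiblast (8 of 10 in the table) summed to 1301 to 1394 CPM in low and 1403 to 1538 CPM in high libraries. The largest part was POU5F1, at 606 to 929 CPM in low and 687 to 763 CPM in high. NANOG was at 12.2 to 22.1 against 31.1 to 47.3 CPM and SOX2 at 47.9 to 55.7 against 35.4 to 53.1 CPM, so the libraries are not taken as trophectoderm alone. Hypoblast markers (8 of 11) summed to 1532 to 3040 against 2275 to 2966 CPM. Most of this sum was FN1 alone, at 1240 to 2539 CPM in low and 1961 to 2550 CPM in high libraries. Of the 8, 5 were higher and 3 lower in low. Cumulus and granulosa markers (6 of 15) summed to 296 to 365 against 315 to 416 CPM, and stromal markers (5 of 7) to 101 to 182 against 98.7 to 132 CPM. Most of the cumulus and granulosa sum was HSD3B1 alone, at 245 to 311 CPM in low and 260 to 357 CPM in high libraries. Of 6 blood markers CD14 alone was in the table, at 0.751 to 2.05 CPM in low and 0.472 to 1.05 CPM in high libraries. In bulk samples like these, fewer cells of a type and less RNA per cell cannot be told apart.

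Among the 6 keratins, the trophectoderm keratins KRT8, KRT18, KRT19 and KRT7 had overlapping levels in the 2 groups, as did KRT10. KRT6A alone was separated, with every low library above every high one. Limma on log2(CPM + 1) called 0 of the 6 keratins at an adjusted p of 0.05, against 0% of all genes (0 of 9537). At an unadjusted p below 0.05, KRT6A alone passed, against 12.0% of all genes. The authors' deposited table called KRT6A alone of the 6, against 1.20% of all genes there and 0.912% called higher in low. As the 6 were chosen with earlier results of these data known, these shares do not test whether keratins are called more often. For 21.0% of all genes the groups did not overlap, and for 10.4% the low libraries were above the high ones, so separation by itself is common in this table.

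KRT8, the type II partner of KRT18 in simple epithelia, was at 17382, 21785 and 15394 CPM in low libraries 1, 2 and 3. In high libraries 1, 2 and 3 it was at 17590, 19418 and 17629 CPM. The highest and the lowest of the 6 values were both low libraries, and the high libraries lay between them. The means were 18187 ± 3271 in low and 18212 ± 1044 CPM in high (SD, n = 3 each), a low over high ratio of 0.999. The limma log2 difference, low minus high, was -0.02 with a standard error of 0.16 (adjusted p = 0.988). Its 95% confidence interval corresponds to a ratio between 0.761 and 1.29, so smaller shifts in either direction are not detectable here. The sign followed single libraries: the difference was 0.10 without low library 3 and -0.15 without low library 2.

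KRT18, the main type I keratin of simple epithelia, was at 10547, 13265 and 9743 CPM in low libraries 1, 2 and 3. The high libraries 1, 2 and 3 were at 11836, 13105 and 14651 CPM. Low libraries 1 and 3 lay below all high libraries, and low library 2 lay among them. The means were 11185 ± 1845 against 13197 ± 1410 CPM, with a limma log2 difference of -0.25 and a standard error of 0.16 (adjusted p = 0.657). The interval of the ratio ran from 0.645 to 1.10. Without low library 2 the difference was -0.38 (adjusted p = 0.0735), in a fit that called 13.6% of all genes. The summed trophectoderm markers were also lower in every low library than in every high one, and so were the summed inner cell mass and epiblast markers. In both lists the sums nearly met. Trophectoderm markers reached up to 4086 CPM in low and started from 4109 CPM in high libraries. Inner cell mass and epiblast markers reached up to 1394 CPM in low and started from 1403 CPM in high libraries. Of the 8 inner cell mass and epiblast markers 5 were lower and 3 higher in low, among the 3 POU5F1, the one with the most reads (745 against 732 CPM). For 2 of the 8, named after their values were seen, every low library was below every high one: NANOG (16.2 against 38.7 CPM) and LEFTY2 (2.80 against 8.18 CPM). Their adjusted p in the authors' deposited table was 0.002 and 0.008, where 0.283% of all genes were called higher in high. Of the 14 trophectoderm markers 10 were lower and 4 higher in low. The 4 were PTGS2, the one with the most reads (1083 against 1032 CPM), CYP11A1, TKDP1 and PAG11. Every low library was above every high one for TKDP1 and PAG11, as for 10.4% of all genes. The reverse held for 5, GATA2, TFAP2A, TFAP2C, DAB2 and KLF5, as for 10.6% of all genes. Without low library 2 limma called TKDP1 higher in low (adjusted p = 0.0374, against 0.241 with it), as it did 8.15% of all genes in that direction. It also called GATA2 lower in low (adjusted p = 0.0333, against 0.258 with it), in a fit that called 13.6% of all genes. The part of these marker lists in the KRT18 values was not tested.

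KRT19, a short type I keratin without a tail domain, was at 653, 1220 and 552 CPM in low libraries 1, 2 and 3. It was at 556, 725 and 670 CPM in high libraries 1, 2 and 3. One library made the low group's spread: low library 2 was above all others, and low libraries 1 and 3 lay within or just below the high range. The means were 808 ± 360 against 651 ± 86.2 CPM (limma log2 difference 0.23, standard error 0.30, adjusted p = 0.863). The interval of the ratio was wide, from 0.718 to 1.93. Without low library 2 the difference was -0.11 (adjusted p = 0.625). Among the 100 genes nearest to it in mean CPM, the within-group spread of KRT19 was at the 85th percentile, while that of KRT8 and KRT18 was at the 33rd and 36th of theirs.

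KRT7, a type II keratin of glandular and trophoblast epithelium, was at 145, 187 and 133 CPM in low libraries 1, 2 and 3, and at 157, 148 and 135 CPM in high libraries 1, 2 and 3. Low library 2 was again the highest, and the other 5 libraries lay close together. The low over high ratio was 1.06, with an interval from 0.804 to 1.37 (limma log2 difference 0.07, adjusted p = 0.939). Without low library 2 the log2 difference was -0.07.

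**Figure D1:**
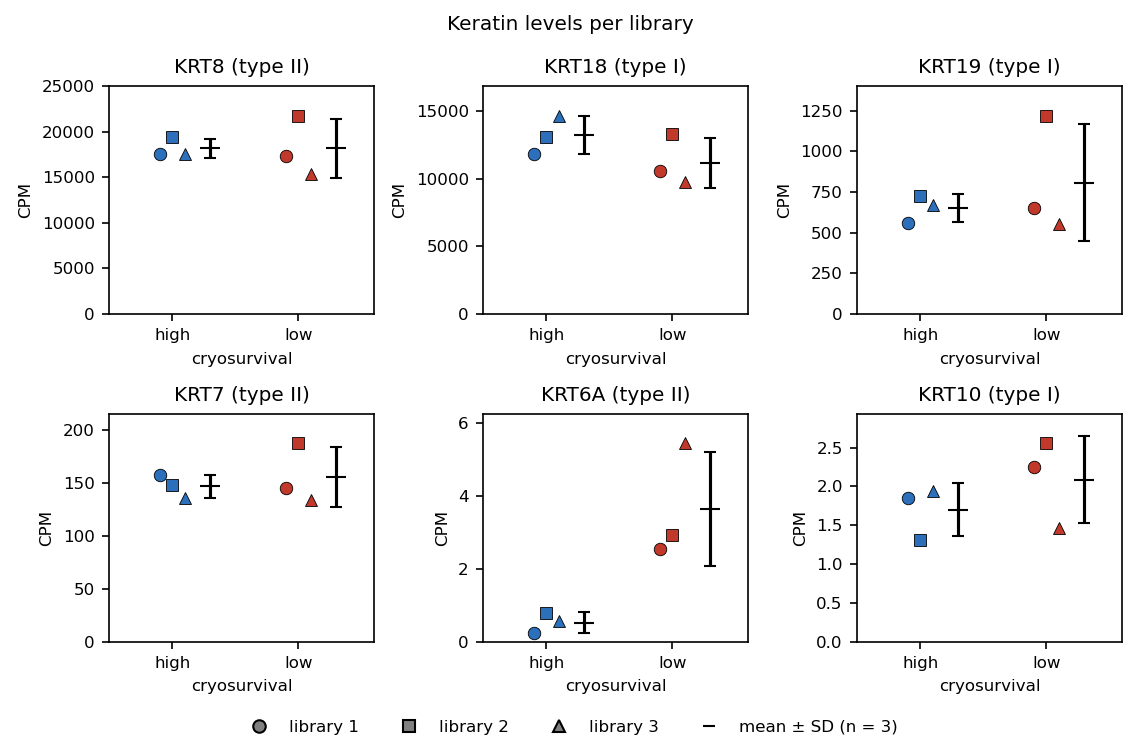
CPM of each keratin (vertical axes, from 0) in the 3 high and 3 low cryosurvival libraries; marker shapes are library numbers and black bars are mean ± SD (n = 3). KRT6A separates the groups, from 0.224 to 0.787 CPM in high and from 2.55 to 5.45 CPM in low libraries, and low library 2 is the highest low library for KRT8, KRT18, KRT19, KRT7 and KRT10.

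KRT6A was the exception. It was at 2.55, 2.93 and 5.45 CPM in low libraries 1, 2 and 3, from 51, 39 and 104 reads. In high libraries 1, 2 and 3 it was at 0.224, 0.787 and 0.555 CPM, from 4, 15 and 10 reads. The lowest low library was 3.24 times the highest high library, and low library 3 was above low libraries 1 and 2. The exact Poisson 95% intervals of the reads, which cover counting error only, ran from 1.90 to 3.35 CPM in the lowest low library and from 0.44 to 1.30 CPM in the highest high library.

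KRT6A averaged 3.64 ± 1.58 CPM over the low and 0.522 ± 0.283 CPM over the high libraries (SD, n = 3 each), a ratio of 6.97. The limma log2 difference was 1.57 with a standard error of 0.26 and did not pass over all genes (adjusted p = 0.142). With a pseudocount of 1 this scale understates the change of a gene at so low a level, and a pseudocount of 0.1 gave 2.63 (adjusted p = 0.13). In the authors' deposited table the log2 fold, turned to low over high, was 2.78 with an adjusted p listed as 0.000 at 3 decimals. Without low library 2, limma called KRT6A (log2 difference 1.67, adjusted p = 0.021), as it did 8.15% of all genes in that direction. KRT6A has close paralogs in KRT6B and KRT6C, which are not in the table, and reads of these copies may be shared with it.

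KRT10, an epidermal type I keratin, was at 2.25, 2.55 and 1.47 CPM in low libraries 1, 2 and 3. High libraries 1, 2 and 3 were at 1.85, 1.31 and 1.94 CPM. The values rest on 25 to 45 reads per library, and the groups overlap. The limma log2 difference was 0.19 with a standard error of 0.18 (adjusted p = 0.806; difference 0.08 without low library 2), and the ratio on the log2(CPM + 1) scale lay between 0.843 and 1.53. KRT10 and KRT6A were the 2 of the 6 keratins with a mean under 5 CPM, and both are in the table without a filter added here.

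**Figure D2:**
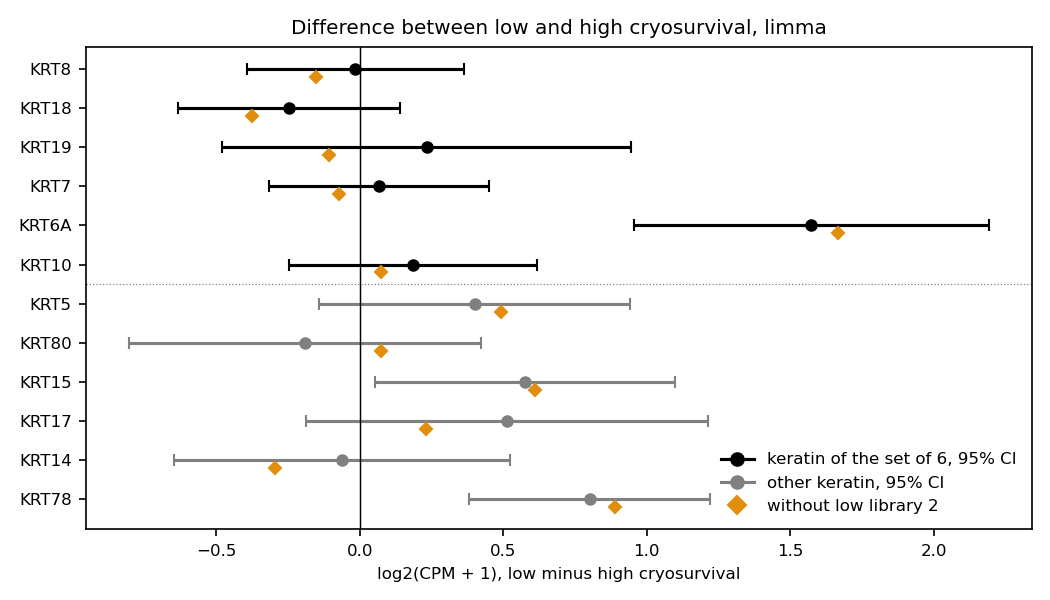
Limma differences of log2(CPM + 1), low minus high cryosurvival (horizontal axis), with 95% confidence intervals, for the 6 keratins (black) and the other 6 keratins of the table (grey); orange diamonds are the differences without low library 2. The interval of KRT6A starts at 0.96, while those of KRT8, KRT18, KRT19, KRT7 and KRT10 span 0.

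Ratios within a library do not depend on how the library was scaled, and of 4 pair ratios KRT8 over KRT18 and KRT18 over KRT19 did not overlap between the groups, while KRT8 over KRT19 and KRT7 over KRT8 did. They are descriptions, with no test. KRT8 over KRT18 was 1.65, 1.64 and 1.58 in low libraries 1, 2 and 3. In high libraries 1, 2 and 3 it was 1.49, 1.48 and 1.20. Every low library was above every high one, low library 2 included, and the low libraries were close together.

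The mean KRT8 over KRT18 ratio was 1.62 ± 0.0378 over the low and 1.39 ± 0.162 over the high libraries (SD, n = 3 each). High library 3, which had the highest KRT18, set much of the gap. The log2 ratio differed by 0.23 with it and by 0.13 without it. For comparison, the ratio of KRT8 to every other gene did not overlap between the groups for 12.3% of 9532 genes, with low above high for 4.46% and high above low for 7.85%. For KRT18 over every other gene, 22.4% did not overlap, 21.1% with high above low and 1.32% with low above high. KRT8 is thus 1 of the 2011 genes relative to which KRT18 was lower in every low library.

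KRT18 over KRT19, a pair of type I chains that both partner KRT8, was 16.1, 10.9 and 17.7 in low libraries 1, 2 and 3. It was 21.3, 18.1 and 21.9 in high libraries 1, 2 and 3. All low libraries were below all high ones, although low library 3 and high library 2 nearly met. The log2 ratio differed by -0.48, and by -0.27 without low library 2. KRT19 over every other gene did not overlap for 6.25% of genes, 5.03% with low above high and 1.23% with high above low. KRT8 over KRT19 overlapped, at 17.9 to 27.9 in low and 26.3 to 31.6 in high libraries, as did the log2 ratio of KRT7 over KRT8, with means of -6.87 ± 0.0269 in low and -6.96 ± 0.128 in high. In CPM summed over the 3 type II and the 3 type I keratins, the type II over type I ratio was 1.51 to 1.56 in low and 1.16 to 1.43 in high libraries. This sum is nearly all KRT8 and KRT18.

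**Figure D3:**
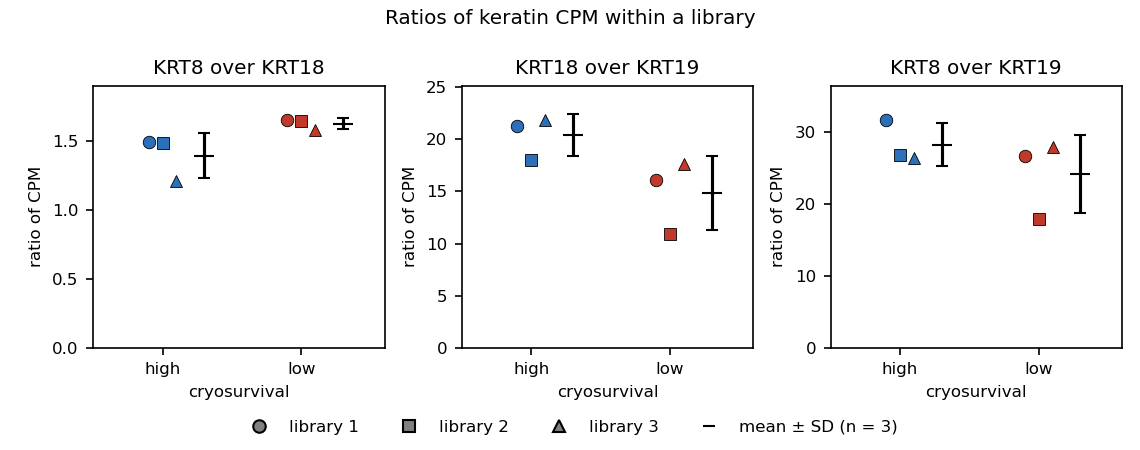
Ratios of CPM within each library (vertical axes, from 0) for KRT8 over KRT18, KRT18 over KRT19 and KRT8 over KRT19; marker shapes are library numbers and black bars are mean ± SD (n = 3). KRT8 over KRT18 is 1.58 to 1.65 in low and 1.20 to 1.49 in high libraries, and KRT8 over KRT19 overlaps.

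The other 6 keratins of the table are mostly known from layered epithelia and skin. Of these, 4 were higher and 2 lower in low libraries, with a median log2 difference of 0.46 (0.25 without low library 3), and limma called 0 of them. The authors' deposited table called 1, KRT78, against 1.20% of all genes. KRT78, an epidermal type II keratin, was at 2.55, 1.50 and 1.57 CPM in low libraries 1, 2 and 3. In high libraries 1, 2 and 3 it was at 0.448, 0.787 and 0.666 CPM, from 8, 15 and 12 reads. The groups did not overlap. The limma log2 difference of KRT78 was 0.80 (standard error 0.18, adjusted p = 0.176), and 0.89 without low library 2 (adjusted p = 0.0248). In the authors' deposited table its log2 fold, turned to low over high, was 1.56 with an adjusted p of 0.040.

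KRT15, a type I keratin of basal epithelial cells, was at 5.94, 7.51 and 11.0 CPM in low libraries 1, 2 and 3. High libraries 1, 2 and 3 were at 4.76, 4.46 and 5.82 CPM. The groups did not overlap, but low library 1 and high library 3 nearly met (limma log2 difference 0.58, adjusted p = 0.367). KRT5, the basal type II keratin, was at 98.7, 109 and 176 CPM in low libraries 1, 2 and 3 against 99.2, 85.6 and 95.9 CPM in high ones. Its groups overlapped, and low library 3 stood above the rest (limma log2 difference 0.40, adjusted p = 0.588). Without low library 3 the log2 difference was 0.15 for KRT5 and 0.36 for KRT15.

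KRT14, the usual partner of KRT5 in basal cells, was at 0.899 to 2.55 CPM in low and 1.26 to 2.0 CPM in high libraries (limma log2 difference -0.06, and -0.29 without low library 2; adjusted p = 0.965). KRT17, a type I keratin of skin appendages and of epithelia under stress, was at 1.31 to 4.36 CPM in low and 1.35 to 1.72 CPM in high libraries (limma log2 difference 0.51, adjusted p = 0.593). Its difference was 0.23 without low library 2 and 0.84 without low library 3. KRT14 and KRT17 have close paralogs, so their reads may be shared. KRT80, a type II keratin, was at 12.6 to 25.0 against 17.7 to 24.5 CPM (limma log2 difference -0.19, and 0.075 without low library 2; adjusted p = 0.877). Of the 12 keratins, KRT6A, KRT78 and KRT15 had every low library above every high one, and 0 had the reverse, against 10.4% and 10.6% of all genes. Among the 1590 genes with a mean under 5 CPM, low was above high for 11.1%.

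The keratins fell into sets by the library in which they were highest. KRT8, KRT19, KRT7, KRT10, KRT17 and KRT14 were highest in low library 2. KRT6A, KRT5, KRT15 and KRT80 were highest in low library 3, KRT78 in low library 1 and KRT18 in high library 3. Relative to the mean of low libraries 1 and 3, low library 2 was higher by 0.41 for KRT8, 0.39 for KRT18, 0.42 for KRT7 and 1.02 for KRT19, in log2(CPM + 1). The median over the 135 genes with a mean of at least 1000 CPM was 0.44, so the values of KRT8 and KRT18 in that library were near that of other genes with many reads. Over the 1966 genes with a mean of 100 to 1000 CPM, where KRT19 and KRT7 belong, the median was 0.11 and the upper quartile 0.50. KRT19 was above that quartile and KRT7 below it. Relative to the mean of low libraries 1 and 2, low library 3 was higher by 0.79 for KRT6A, 0.75 for KRT5 and 0.64 for KRT15, against a median of -0.01 over all genes.

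**Figure D4:**
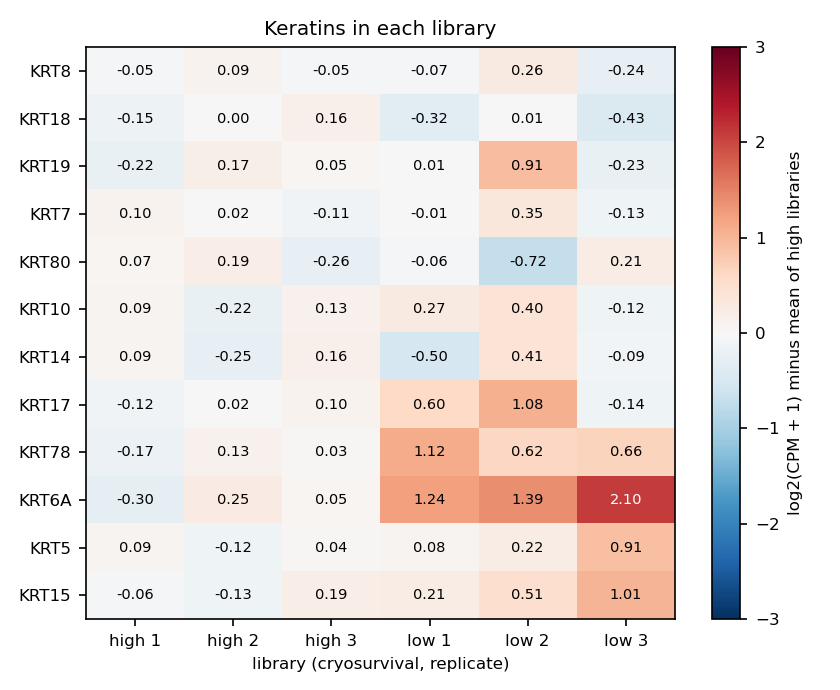
Log2(CPM + 1) of 12 keratins in each library minus the mean of the 3 high libraries (colour and printed value); columns are libraries and rows are genes. KRT6A is above 0 by 1.24 to 2.10 in the 3 low libraries, KRT19 by 0.91 in low library 2, and KRT5 and KRT15 by 0.91 and 1.01 in low library 3.

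Genes with the most similar pattern were ranked by Pearson's r of log2(CPM + 1) over the 6 libraries, among genes with a mean of at least 10 CPM. With 6 points, these values only describe likeness. Low library 2 was the highest for KRT8, KRT19, KRT7 and KRT10, but not for KRT18 or KRT6A. For KRT8 the closest were BIN1 (0.993), FKBP4 (0.986), CALML5 (0.984) and METRNL (0.979), and 122 of 7096 genes exceeded 0.9. For KRT18 they were ARVCF (0.996), CORO1B (0.989), F3 (0.986) and EML3 (0.985). For KRT19 they were LAD1 (0.994), SMCO4 (0.993), CST3 (0.993) and NPC2 (0.990), and 405 genes exceeded 0.9. For KRT7 they were TUBA3E (0.991), MRPL53 (0.988), UNC50 (0.983) and ACTR3 (0.982).

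The genes nearest to KRT6A were RPS6KA4 (0.995), MAPKAPK3 (0.990), the trophoblast Kunitz domain gene TKDP1 (0.990) and PDE1B (0.978). RPS6KA4 was at 18.0, 18.0 and 19.8 CPM in low libraries 1, 2 and 3 and at 14.7, 15.5 and 15.6 CPM in high libraries 1, 2 and 3, a much smaller gap than that of KRT6A. PDE1B was at 16.7, 15.7 and 22.0 CPM in low and at 9.13, 9.86 and 8.43 CPM in high libraries. For KRT10 the nearest were KIAA1715 (0.996), STX17 (0.972), CCNI (0.967) and PIGB (0.965), and 19 of 7097 genes exceeded 0.9. None of the 6 keratins was among the 4 nearest genes of another. Among the 12 keratins the value was 0.903 for KRT8 with KRT19, 0.853 for KRT8 with KRT7 and 0.655 for KRT8 with KRT18. It was 0.866 for KRT17 with KRT19 and 0.837 with KRT10. KRT6A had 0.883 with KRT15, 0.817 with KRT78 and 0.774 with KRT5, and KRT5 had 0.939 with KRT15.

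Genes that anchor keratin filaments were mixed. Of 22 listed desmosome, hemidesmosome and plakin genes 15 were in the table, with 9 higher and 6 lower in low libraries and a median log2 difference of 0.06, against 0.00 over all genes. Limma called 0 of them, and the authors' deposited table called 1, COL17A1, higher in low, as it did 0.912% of all genes. The median's sign followed single libraries, at -0.18 without low library 1, -0.03 without high library 3 and 0.27 without low library 2. COL17A1, the transmembrane collagen of hemidesmosomes, was at 25.3, 18.6 and 30.4 CPM in low libraries 1, 2 and 3. In high libraries 1, 2 and 3 it was at 11.7, 9.81 and 10.9 CPM. The groups were well apart (limma log2 difference 1.10, standard error 0.19, adjusted p = 0.142; 0.0113 without low library 2), and its adjusted p in the authors' deposited table was 0.002.

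Envoplakin (EVPL), a linker of the cornified envelope, was at 95.5 ± 20.0 in low and 133 ± 17.1 CPM in high, and plakophilin 3 (PKP3) at 98.8 ± 14.2 against 80.0 ± 6.36 CPM (SD, n = 3 each; adjusted p = 0.362 and 0.516). Desmoplakin (DSP), which ties keratin to desmosomes, was at 1664, 586 and 1188 CPM in low libraries 1, 2 and 3 and at 1047, 1241 and 1042 CPM in high ones. Plakoglobin (JUP) was at 754, 250 and 614 CPM against 465, 566 and 333 CPM. For both genes low library 2 was the lowest of the 6 and low libraries 1 and 3 were above high library 3. Their low library 2 values thus went opposite to those of KRT8, KRT18, KRT19 and KRT7. Without it 13 of the 15 were higher and limma called 3, all higher in low, in a fit that called 13.6% of all genes and 8.15% higher in low: COL17A1, the desmosomal cadherin DSG2 and the hemidesmosomal integrin ITGA6, the last pair named after their values were seen.

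Other intermediate filaments and lamins had 12 of 15 listed genes in the table, with 7 higher and 5 lower in low libraries and a median of 0.14. Leaving out high library 2 gave a median of 0.05, low library 3 one of 0.06 and high library 1 one of 0.21. The authors' deposited table called 2, both higher in low, against 0.912% of all genes. Without low library 2 limma called 2 of the 12 (8.15% of all genes higher in low), NES and the filament protein SYNM, the latter named after its values were seen. Nestin (NES), an intermediate filament of progenitor cells, was at 67.0, 68.3 and 52.7 CPM in low against 37.6, 32.3 and 41.0 CPM in high libraries 1, 2 and 3 (limma adjusted p = 0.173, and 0.0352 without low library 2; 0.043 in the authors' deposited table). Neurofilament NEFM was at 2.74 ± 0.555 against 0.964 ± 0.556 CPM (limma adjusted p = 0.198; 0.046 in the authors' deposited table). The internexin gene INA was lower in low, at 13.9 ± 2.28 against 21.6 ± 4.14 CPM (adjusted p = 0.294). The lamins LMNA and LMNB1 were at 301 ± 19.8 against 252 ± 13.3 CPM and 191 ± 10.7 against 178 ± 12.1 CPM (SD, n = 3 each).

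Of 27 listed proteins that bind or modify keratins, or are named after keratinocytes, 25 were in the table. There were 16 higher and 9 lower in low libraries, with a median of 0.06 and 0 called by limma. Leaving out high library 3 gave a median of 0.01, and leaving out low library 2 one of 0.03. BAG3, a co-chaperone in the clearance of damaged filaments, was the 1 called in the authors' deposited table (adjusted p = 0.020), against 0.912% of all genes called higher in low there. It was at 98.9, 71.1 and 101 CPM in low and 49.0, 54.8 and 49.4 CPM in high libraries 1, 2 and 3. The polarity kinase PRKCZ was at 210 ± 9.03 against 284 ± 15.0 CPM and the keratin-binding protein FBF1 at 30.6 ± 2.23 against 39.5 ± 1.78 CPM (limma adjusted p = 0.224 and 0.306). With low library 2 left out, limma called BAG3 (adjusted p = 0.0113), PRKCZ (0.0375), FBF1 (0.0341) and, named after their values were seen, TGM2 and CASP6. Of these 5, 2 were higher (BAG3 and TGM2) and 3 lower in low, in a fit that called 13.6% of all genes. PRKCZ and FBF1 were below all high libraries in every low one, as were 10.6% of all genes. The membrane linker EZR was at 4809 ± 889 against 5233 ± 645 CPM and the 14-3-3 protein SFN, which binds keratins, at 1176 ± 252 against 1084 ± 69.1 CPM.

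Genes of stressed or cornifying epithelium were looked at because KRT6A belongs to that program in skin. Only 12 of the 30 listed were in the table, and involucrin (IVL) and the 5 listed SPRR genes were not. Of the 12, 11 were higher and 1 lower in low, against 4772 of 9537 genes higher, with a median of 0.10. That count rested on low library 2: without it 6 were higher and 6 lower, with a median of 0.03, against 4672 of 9537 genes higher. Leaving out either of the other low libraries raised the median, to 0.27 without library 1 and 0.26 without library 3. CRCT1, a cornified envelope gene, was the 1 called in the authors' deposited table (adjusted p = 0.005), where 0.912% of all genes were called higher in low. It was at 10.3, 31.5 and 12.1 CPM in low and 4.03, 3.51 and 7.38 CPM in high libraries 1, 2 and 3. Its highest value was in low library 2, where KRT6A was not highest, and without that library limma called it (log2 difference 1.08, adjusted p = 0.0427). Transglutaminase 1 (TGM1), which crosslinks the cornified envelope, went the other way, at 28.9 ± 8.67 in low against 41.6 ± 2.14 CPM in high (adjusted p = 0.362). The growth factor HBEGF was at 98.0 ± 27.3 against 65.6 ± 1.52 CPM (limma adjusted p = 0.405; 0.0158 without low library 2), and S100A14, the most read gene of the list, at 2200 ± 1011 against 1978 ± 159 CPM.

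Among 30 listed transcription factors of trophectoderm and simple epithelium, 24 were in the table, 14 higher and 10 lower in low, with a median of 0.08. Limma called 0, and the authors' deposited table called 2, ETS1 and FOSL1, both higher in low, against 0.912% of all genes. With low library 2 left out, limma called 6 higher and 1 lower of the 24, and the median was 0.17. That fit called 13.6% of all genes, with 8.15% higher in low. Without low library 3 the median was 0.16.

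FOSL1, a subunit of AP-1, was at 38.9, 16.5 and 31.0 CPM in low and 9.64, 12.7 and 9.43 CPM in high libraries 1, 2 and 3 (limma adjusted p = 0.192, and 0.0113 without low library 2; 0.002 in the authors' deposited table). ETS1 was at 25.3, 10.7 and 21.9 CPM in low and 6.33, 6.50 and 6.88 CPM in high libraries (limma adjusted p = 0.176, and 0.00809 without low library 2; 0.001 in the authors' deposited table). In both, low library 2 was the lowest low library but above all high ones. OVOL1, a repressor in epithelial differentiation, was at 45.9 ± 3.20 against 32.9 ± 3.02 CPM (limma adjusted p = 0.232; 0.0355 without low library 2).

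GATA2 and KLF5, factors of the trophectoderm, were lower in low libraries. GATA2 was at 686, 746 and 664 CPM in low and 868, 927 and 992 CPM in high libraries 1, 2 and 3 (limma adjusted p = 0.258; 0.0333 without low library 2). KLF5 was at 477 ± 39.2 against 561 ± 15.6 CPM (adjusted p = 0.526). In both, every low library was below every high one, as was so for 10.6% of all genes but not for KRT8 or KRT18. Of the 24 factors, 6 had every low library below every high one, and 6 had the reverse, against 10.6% and 10.4% of all genes.

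**Figure D5:**
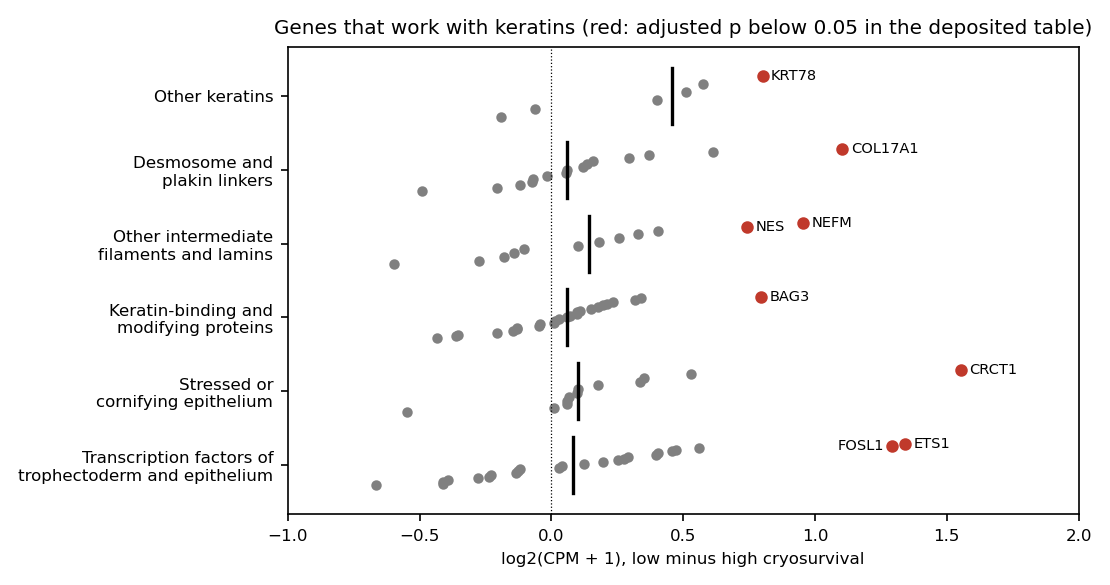
Limma differences of log2(CPM + 1), low minus high cryosurvival (horizontal axis), for each gene of 6 lists; vertical bars are list medians and red points are genes with an adjusted p below 0.05 in the authors' deposited table. The red points (KRT78, COL17A1, NES, NEFM, BAG3, CRCT1, FOSL1 and ETS1) are all above 0, while the medians lie between 0.06 and 0.46.

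In the gene order of ARS-UCD2.0, KRT18 and KRT8 are neighbours, KRT78 follows KRT8, KRT80 follows KRT7, KRT6A follows KRT5, and KRT15 stands next to KRT19. The low over high ratios of these neighbours were 0.848 for KRT18 and 0.999 for KRT8, 2.96 for KRT78, 1.06 for KRT7 and 0.896 for KRT80. They were 1.37 for KRT5 and 6.97 for KRT6A, and 1.24 for KRT19 and 1.63 for KRT15. Differences between neighbours were not tested.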

How the data were processed

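The authors' deposited table gives, per gene and library, a value with 3 decimals, with the authors' p-value, its adjusted form and a log2 fold. The submitters' processing notes list HTSeq 0.5.4p2, DESeq 1.12.1, TopHat2 2.0.8, Cufflinks 2.1.1, Bowtie2 2.1.0 and SAMtools 0.1.18, with no role. Not given in the sources used here are the genome build, annotation, use of strand, low-count filter and the tool behind the deposited p-values. The values were taken as CPM, since 100% of those up to 1000 came to whole reads, to within 0.05 read, once divided by a constant of the library. The lowest mean in the table was 0.737 CPM. Per the labels, every RNA integrity number was at least 7.7.

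Groups came from the sample titles. Limma 3.58.1 in R 4.3.3 compared 3 low with 3 high libraries on log2(CPM + 1) over all 9537 genes, two-sided, with Benjamini-Hochberg adjustment. It was tried on simulated data with equal noise in all libraries and no changed gene as low as KRT6A. That trial therefore does not cover a library like low library 2 or a gene at the level of KRT6A. An exact permutation test of 3 against 3 cannot give a p below 0.1 and was not used. List genes named are the 3 with the lowest p and the 2 with the highest mean. The members and lists were chosen with earlier results of these data known. Libraries of a group differed by more than counting noise. Replicate numbers were not used to pair the libraries in this fit, and the labels do not say what they mark. Promoter and protein sequences of the keratins were not used here.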

Additional observations from a re-analysis of the deposited data

How the results depend on the processing

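The number of genes called by limma was 0 with a pseudocount of 1, 7 with a pseudocount of 0.1, 10 with 0.5, 7 with genes of at least 5 CPM only and 7 with medians set equal. With 1 library left out it ran from 0 to 1300, the 1300 without low library 2. TMM scaling, shares of table reads and voom on recovered reads gave 0 calls (1142 genes at an unadjusted p below 0.05 in limma, 1120 in voom); the last pair of settings was chosen after the data were seen. The planned count models on recovered reads were not run, and voom was run on those reads instead. With 1 library left out, KRT8 ran from -0.15 to 0.10 (0.03 without high library 2, 0.01 without low library 1 and 0.10 without low library 3), KRT18 from -0.38 to -0.15, KRT19 from -0.11 to 0.46, KRT7 from -0.073 (without low library 2) to 0.17, KRT6A from 1.31 to 1.74 and KRT10 from 0.08 to 0.34. KRT6A passed in 1 of its settings, without low library 2 (1.67, adjusted p = 0.021). KRT17 ran from 0.23 to 0.84, KRT80 from -0.39 to 0.075 (without low library 2) and KRT14 from -0.29 to 0.16, turning to 0.02 without high library 3 and to 0.16 without low library 1. List medians with 1 library left out ran from 0.25 to 0.52 for other keratins, -0.18 to 0.27 for desmosome genes, 0.047 to 0.21 for other filaments, 0.0098 to 0.074 for keratin-binding proteins, 0.03 to 0.27 for stressed epithelium and 0.083 to 0.17 for transcription factors. The cause was not tested.

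Replicate numbers are shared by the groups in the titles only. Deviations of same-numbered libraries correlated at 0.123, -0.261 and -0.312. With so few libraries per group, these values cannot decide whether same-numbered libraries shared a batch or culture. With the replicate number as a block 0 genes were called. KRT6A had an adjusted p of 0.495 there, and its difference of 1.57 is the same by construction, since the design is balanced. Depth limits KRT6A, KRT10, KRT14, KRT17 and KRT78 most, as they rest on 4 to 104 reads per library.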
